A study of Mus musculus with 18 samples.

Results

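The heat shock response chaperones described here are 10 mouse genes, Hspa1a, Hspa1b, Hspa8, Hsph1, Dnajb1, Hsp90aa1, Hspb1, Hspb8, Hspd1 and Hspe1, found by symbol among the 54347 genes of a bulk RNA-seq count table. The rule used no measured value, and each of the 10 had 1 row covering all 18 libraries. The cells were mesenchymal stem cells (MSC) grown from the bone marrow of male C57BL/6J mice, stromal cells that can become osteoblasts or adipocytes. Every group held 3 libraries. In the first experiment the untransfected cells were left without drug (control), or received for a day CK666, a small molecule that blocks the Arp2/3 complex and so the branching of actin filaments, or cytochalasin D (CytoD), which caps filaments and stops their growth. In the second experiment the cells were transfected with a mock siRNA (siControl), with an siRNA against Arp4 (siArp4), an actin-related protein of the BAF chromatin remodelling complex encoded by Actl6a, or with the latter followed by CK666 (siArp4+CK666). A transfected control with CK666 was not analysed here. The labels gave no age of the animals. The paper describes a primary cell line, made from the marrow of several mice, that served for all its studies. The p-values therefore measure the spread between separate preparations of such cells and not between animals. In such bulk samples, fewer cells of a type and less RNA per cell cannot be told apart.

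Heat shock chaperones hold unfolded or newly made proteins and help them to fold. Most of their genes answer to heat shock factor 1 (HSF1), which is kept inactive by chaperones in unstressed cells, and which, when unfolded proteins draw the chaperones away, forms trimers and binds inverted repeats of the letters GAA in promoters. Within the set, Hspa8 encodes the abundant Hsp70 of unstressed cells, while Hspa1a and Hspa1b encode the Hsp70 that heat induces from a very low level. Their partners include Dnajb1, a J-domain protein that brings clients to Hsp70, and Hsph1, the Hsp110 that exchanges the nucleotide of Hsp70. Hsp90aa1 is the inducible cytosolic Hsp90, Hspb1 and Hspb8 are small heat shock proteins that hold clients without ATP, and Hspd1 and Hspe1 encode the Hsp60 barrel and its Hsp10 lid in mitochondria.

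The libraries held between 18075610 and 24733212 estimated counts. Mitochondrial genes made up 2.65%, 1.30% and 2.37% of counts in siControl and 2.67%, 2.96% and 3.26% in siArp4. The part of this share in the results was not tested. Actl6a, the target of the knockdown, had 720.5, 1126 and 840.4 normalized counts in siControl, 48.8, 56.7 and 19.4 after siArp4 alone, and 9.39, 23.3 and 17.4 after siArp4+CK666. Of 11 mesenchymal stromal markers, 8 or 9 had at least 10 counts in every library of each group, and their summed level was 4886 to 5957 CPM (counts scaled to a common library total) in CK666 against 9301 to 9952 in control. Col1a1 and Col1a2 had the highest counts among them. The summed level of 8 haematopoietic markers stayed between 2.13 and 10.7 CPM. Libraries differed in the balance between short genes (under 1000 exonic bases) and long genes (over 4000), which ran from -0.71 in siControl replicate 1 to 1.22 in siControl replicate 2 on the log2 scale and reached 0.60 in CK666 replicate 1. This balance moved with the short transcripts of Hspe1 and Hspb1, and it is given beside their values. Its part in those results was not tested beyond the fits with the length trend removed.

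The promoters are shown first because the set is defined by a shared regulator. RefSeq promoter windows (GRCm38.p6, 250 bases before to 50 after the start) were at hand for 8 of the 10 genes, in 11 windows. The 2-repeat motifs GAANNTTC and TTCNNGAA, which read the same on both strands, were searched for in each. At least 1 of them lay in 8 of the 11 windows, against 15.1% of all 32851 windows, and the 8 belonged to 7 of the 8 genes, all but Dnajb1. A run of 3 repeats, GAANNTTCNNGAA or TTCNNGAANNTTC, contains these motifs and lay in 4 of the 11 windows, against 0.603% of all windows. These 4 belonged to Hspd1, Hspe1 and Hsph1 and were not separate sites. Hspd1 and Hspe1 shared the same bases of chromosome 1, and the overlapping Hsph1 windows held the same run. Another Hspd1 window did not hold it. The share of all windows is therefore no measure of enrichment here. The stretches below run 5′ to 3′ along the gene, and the capitals mark the motif letters and the bases between them.

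Hspa1a, chr17:34972187-34972276, minus strand, 120 to 31 bases before the start: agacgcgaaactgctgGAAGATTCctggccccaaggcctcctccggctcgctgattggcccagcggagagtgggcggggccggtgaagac

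Hspb1, chr5:135887799-135887888, plus strand, 120 to 31 bases before the start: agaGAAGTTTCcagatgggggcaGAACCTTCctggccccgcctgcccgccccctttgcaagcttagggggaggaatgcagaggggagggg

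Hspe1, chr1:55088053-55088082, plus strand, 95 to 66 bases before the start: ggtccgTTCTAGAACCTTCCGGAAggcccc

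Hsph1, chr5:149636282-149636306, minus strand, 10 to 34 bases after the start of 1 of its 2 windows: tgcagaTTCTGGAAAGTTCtcctca

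The 90 bases shown for Hspa1a also stand before Hspa1b, letter for letter, at chr17:34959269-34959358 on the minus strand. Over the whole 250 bases before their starts the Hspa1a and Hspa1b promoters had the same letter at 247 positions (98.8%). Their longest open reading frames were identical at 99.4% of 1929 aligned positions, while Hspa1a and Hspa8 were identical at 74.1% of 1942. Between the Hspa1a and Hspa1b transcripts 63.8% of the 31-base words of Hspa1a were shared, so a read can often come from either copy, and the split between the copies is uncertain. The capitals of the Hspe1 stretch are also those of the Hspd1 promoter read from the other strand, since both genes start from the same short interval of chromosome 1 in opposite directions. Hspd1 and Hspe1 share 112 exonic bases there, which an unstranded library cannot assign. In GRCm38, as GENCODE places them, Hspd1 (ENSMUSG00000025980.14) runs from 55077835 to 55088243 on the minus strand of chromosome 1 and Hspe1 (ENSMUSG00000073676.4) from 55088132 to 55091307 on the plus strand. Hspa1b (ENSMUSG00000090877.3) runs from 34956436 to 34959238 and Hspa1a (ENSMUSG00000091971.3) from 34969190 to 34972156, both on the minus strand of chromosome 17.

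Levels were compared between genes as CPM divided by the transcript's length in kb. In control, Hspa8 stood at 1071, Hsp90aa1 at 377, Hspd1 at 274 and Hspe1 at 188, and the ranges of neighbours in this order did not overlap. Much lower came Hsph1 (18.1) and Dnajb1 (16.4), whose ranges overlapped, then Hspa1b (14.2), then Hspa1a (4.40) and Hspb1 (3.95), whose ranges overlapped. Hspb8 was close to absent, with 0 to 8.34 counts in any library. Together the 10 genes made up 0.479% ± 0.020 of all counts in control, 0.562% ± 0.013 with CK666 and 0.310% ± 0.002 with CytoD (SD, n = 3). In the second experiment the shares were 0.267% ± 0.047 in siControl, 0.247% ± 0.005 in siArp4 and 0.270% ± 0.011 in siArp4+CK666.

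**Figure D1:**
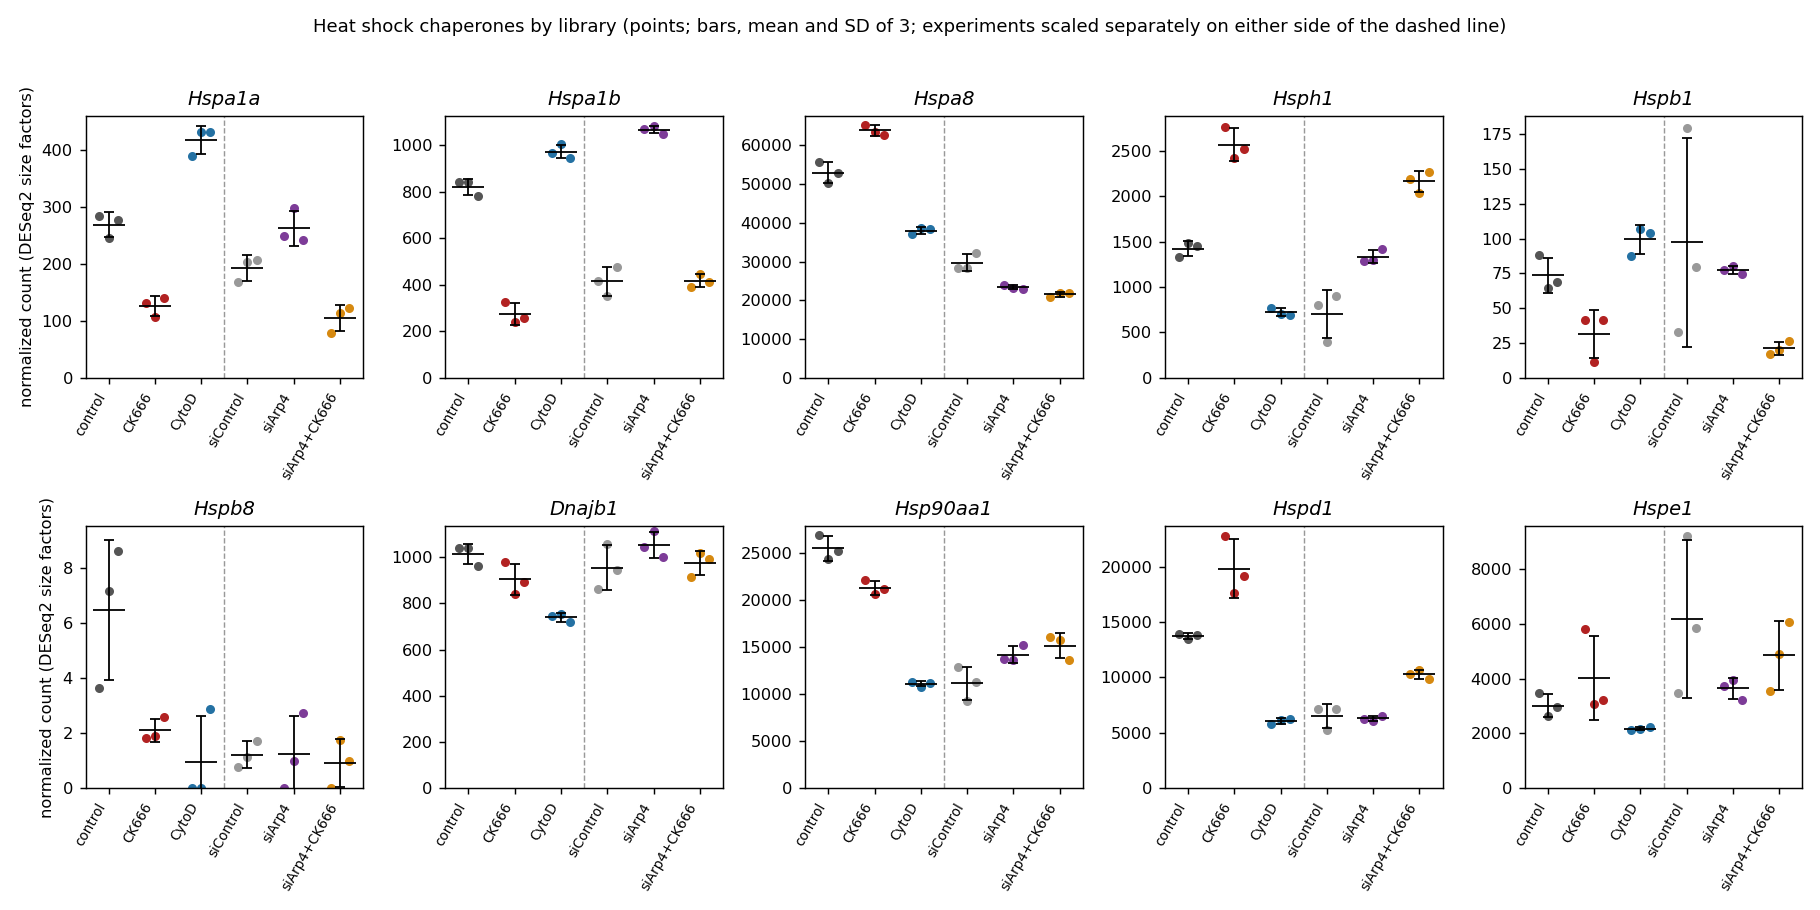
Normalized counts (y axis, count divided by the size factor of its own experiment) of the 10 chaperone genes in each of 18 libraries (points), with the mean and SD of 3 (bars). In the first experiment Hspa1a and Hspa1b are lowest with CK666, where Hspa8, Hsph1 and Hspd1 are highest.

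CK666 moved the heat shock chaperones in opposite directions. The inducible Hsp70 copies fell to 0.470 (Hspa1a) and 0.335 (Hspa1b) of control, and Hspb1 to 0.429, while Hsph1 rose 1.81-fold, Hspd1 1.44-fold and Hspa8 1.21-fold. Hsp90aa1 fell to 0.835 of control. In all, 7 of the 10 genes passed the DESeq2 Wald test at an adjusted p below 0.01, 3 higher and 4 lower, where 29.4% of the 14865 genes tested passed (15.0% higher and 14.4% lower). Of these, Hspa1a, Hspa1b and Hspb1 also exceeded the study's 2-fold minimum, which 10.8% of all genes met together with the adjusted p. The median log2 fold change of the 10 was -0.21, against 0.01 for all genes tested. Dnajb1 (log2 fold change -0.17, adjusted p = 0.201) and Hspe1 (0.42, adjusted p = 0.124) did not pass, nor did Hspb8 at its few counts (adjusted p = 0.353).

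CytoD acted in another way on the same genes. It lowered 5 of the 10, Hsp90aa1 to 0.434 of control, Hspd1 to 0.440, Hsph1 to 0.507, Hspa8 to 0.717 and Dnajb1 to 0.729. Hspa1a rose 1.55-fold (log2 fold change 0.63, SE 0.15, adjusted p = 2.20e-04). These 6 compare with 29.2% of 13923 genes past the test (13.5% higher and 15.7% lower), and only Hsp90aa1 and Hspd1 met the 2-fold minimum (9.02% of all genes). The median over the 9 members tested was -0.48, against 0.01 over all genes tested. Hspa1b (0.24, adjusted p = 0.134), Hspe1 (-0.48, adjusted p = 0.0724) and Hspb1 (0.43, adjusted p = 0.399) did not pass.

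Set directly against each other, the drugs differed in 8 of the 10 genes, 5 higher and 3 lower with CK666, where 32.1% of 14865 genes passed (17.1% higher and 15.0% lower). The 2-fold minimum was met by 5 of them and by 11.9% of all genes. With CK666, Hsph1 was 3.57 times, Hspd1 3.28 times, Hsp90aa1 1.93 times, Hspe1 1.86 times and Hspa8 1.68 times its level with CytoD. Hspa1a stood at 0.303, Hspa1b at 0.283 and Hspb1 at 0.318 of the CytoD level. Dnajb1 missed the threshold (log2 fold change 0.29, adjusted p = 0.0167), and Hspb8 gave no call. The contrast with CytoD and the contrasts with control share libraries, so the values of the 3 contrasts are not independent.

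**Figure D2:**
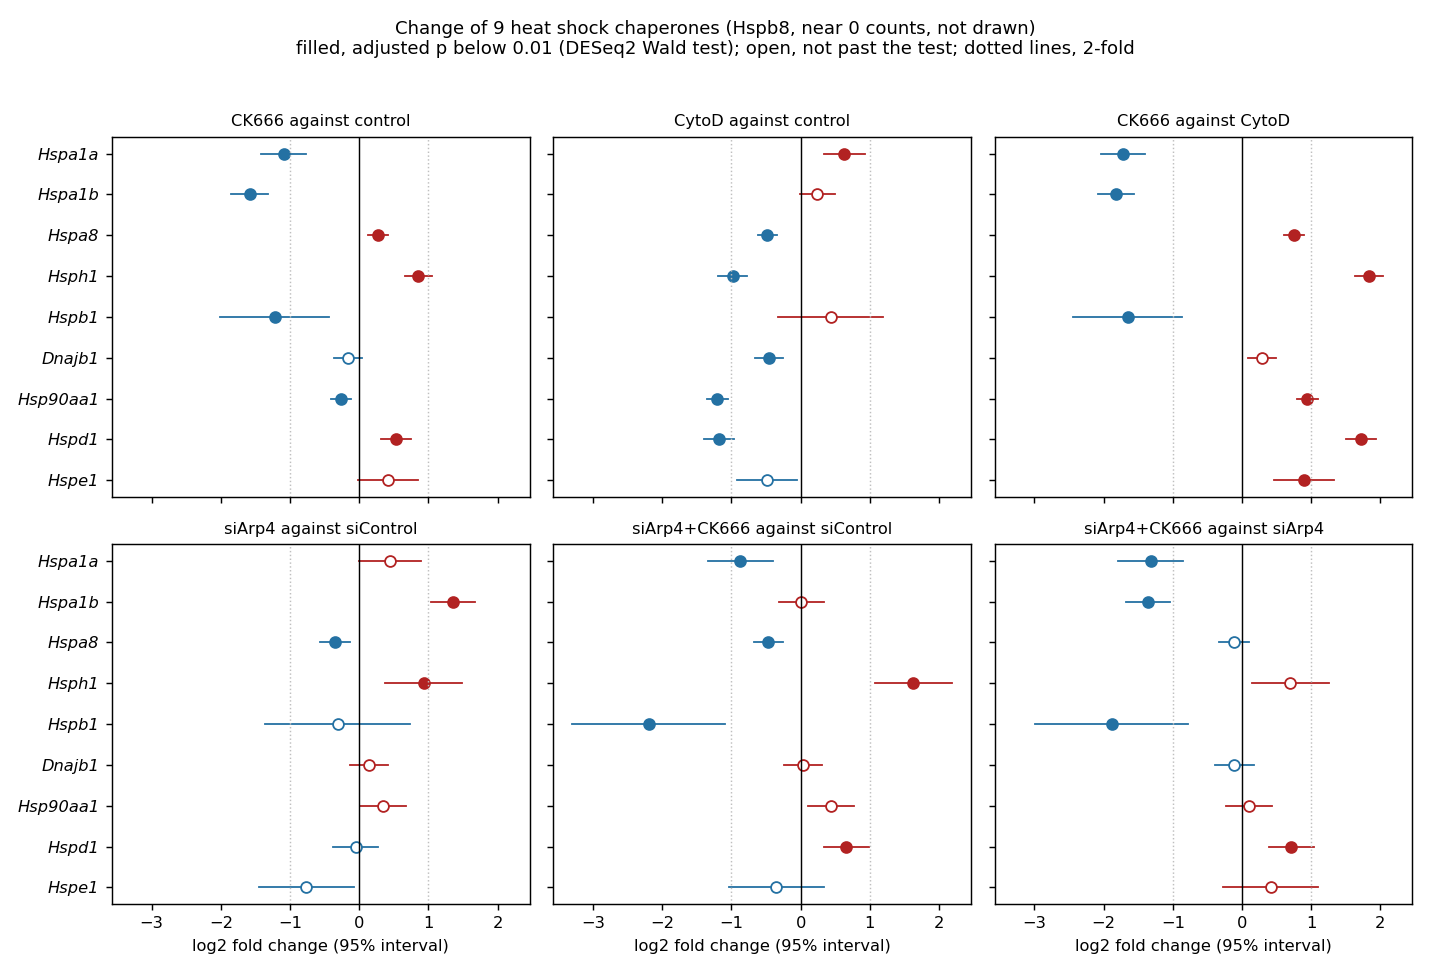
Log2 fold change (x axis) with its 95% interval for 9 chaperone genes in 6 comparisons, from the DESeq2 fits of each experiment. In the panel of CK666 against control Hspa1a, Hspa1b and Hspb1 lie left of zero and Hspa8, Hsph1 and Hspd1 right of it, and the siArp4+CK666 against siArp4 panel has the same 3 genes left of the 2-fold line.

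Among the Hsp70 genes, the inducible copy Hspa1a had 285, 245 and 278 normalized counts in control, 132, 107 and 141 with CK666, and 390.4, 432 and 432 with CytoD. None of these ranges overlapped. The fall with CK666 was -1.09 on the log2 scale (SE 0.17, adjusted p = 6.42e-10). Hspa1b was the more abundant copy, with 843, 843 and 784 counts in control, 328, 240.1 and 257 with CK666, and 966, 1004 and 948 with CytoD. Its fall with CK666 was -1.58 (SE 0.14, adjusted p = 3.20e-29), and its CytoD libraries lay above every control library without passing the test. Summed as 1 gene, the copies fell by 1.44 with CK666 (SE 0.12, adjusted p = 2.24e-30), while with CytoD the summed value was 0.35 (SE 0.12) at an adjusted p of 0.0102, just over the threshold. The summed level of the mesenchymal stromal markers was also lower with CK666 (4886 to 5957 against 9301 to 9952 CPM). With CytoD the sum was 9389 to 9934 CPM, but single markers moved both ways in mean normalized counts. Cd44 (2834 to 1365) and Itgb1 (24471 to 15474) were lower than in control, and Pdgfra (2528 to 3802) and Vcam1 (1157 to 2256) higher. The part of the markers in the result was not tested.

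The constitutive Hspa8 had 55749.8, 50364 and 52792 normalized counts in control, 65297, 63518 and 62693 with CK666, and 37047, 38548 and 38321 with CytoD. Its libraries kept the reverse order of Hspa1a and Hspa1b, with CK666 highest and CytoD lowest. The rise with CK666 was 0.27 (SE 0.07, adjusted p = 8.03e-04), past the test in 15 of 19 alternative fits, and the change with CytoD was -0.48 (SE 0.07, adjusted p = 2.93e-10). Per kb of transcript, Hspa1a and Hspa1b together amounted to 1.70%, 1.82% and 1.69% of Hspa8 in control, to 0.592%, 0.459% and 0.532% with CK666, and to 3.08%, 3.13% and 3.02% with CytoD. The CK666 share was 0.302 of the control share and the CytoD share 1.77 times as high, with no overlap between groups. An exact two-sided permutation test of 3 against 3 libraries gave p = 0.1 for each, the smallest it allows.

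**Figure D3:**
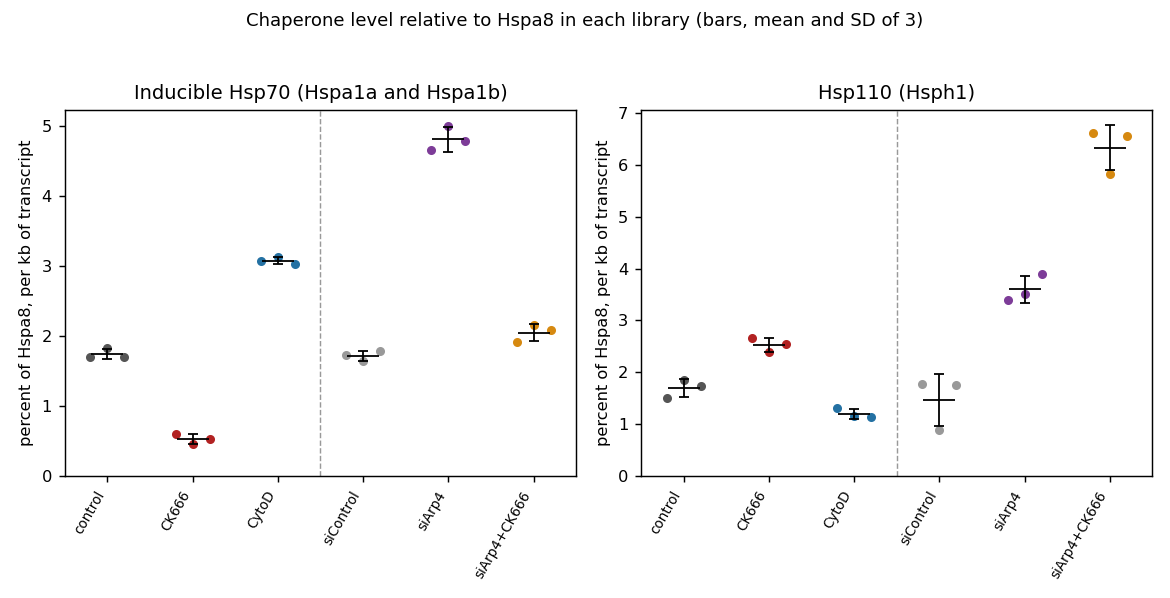
Summed Hspa1a and Hspa1b (left) and Hsph1 (right) as a percent of Hspa8 per kb of transcript (y axis) in each library (points), with the mean and SD of 3 (bars). The inducible Hsp70 share is lowest in CK666 (0.528% on average) and highest in siArp4 (4.81%), and the Hsph1 share is highest in siArp4+CK666 (6.34%).

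The Hsp70 partners did not follow the inducible copies. Hsph1, which resets Hsp70 by exchanging its nucleotide, had 1326, 1482 and 1451 normalized counts in control, 2764, 2419 and 2525 with CK666, and 769.5, 703 and 687 with CytoD. All CK666 libraries lay above and all CytoD libraries below control, by 0.86 (SE 0.10, adjusted p = 1.49e-15) and -0.98 (SE 0.11, adjusted p = 8.18e-19). Dnajb1, which delivers clients to Hsp70, had 1041, 1041 and 963 counts in control, 978, 842 and 891 with CK666, and 745, 756 and 718 with CytoD. Its CK666 libraries overlapped control, and the fall with CytoD was -0.46 (SE 0.10, adjusted p = 7.58e-05).

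Hsp90aa1, the inducible Hsp90, fell under both drugs and further with CytoD. Control held 26950.5, 24344 and 25253 normalized counts, CK666 22098, 20613 and 21211, and CytoD 11284, 10775 and 11147. The log2 fold change was -1.20 with CytoD (SE 0.08, adjusted p = 6.52e-54) and -0.26 with CK666 (SE 0.08, adjusted p = 0.00249). The CK666 call passed in 10 of 19 alternative fits.

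Hspb1, which binds unfolded clients and actin filaments, was read from few counts. It had 88.04, 64.7 and 68.5 normalized counts in control, 41.5, 11.5 and 41.7 with CK666, and 87.2, 107 and 104 with CytoD. CK666 replicate 2 was the lowest library, and the CK666 change of -1.22 (SE 0.40, adjusted p = 0.00837) became -0.82 (adjusted p = 0.0313) without it. The call passed in 6 of 19 alternative fits, with adjusted p-values up to 0.063, and was lost among others with edgeR (0.0358), with TMM size factors (0.0104) and without any 1 control library. CK666 replicate 2 also had the lowest balance of short over long genes in the first experiment, at -0.30, against -0.17 to -0.08 in control. The second small heat shock protein, Hspb8, had 3.64, 7.18 and 8.63 normalized counts in control, 1.81, 1.90 and 2.59 with CK666, and 0, 0 and 2.88 with CytoD. Where no read was counted the true level can still be as high as 3 counts, so no change of Hspb8 was detectable at this depth.

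In the mitochondria, Hspd1 (Hsp60) had 13930.1, 13439.7 and 13825 normalized counts in control, 22776, 17582 and 19146 with CK666, and 5792, 6093 and 6254 with CytoD. The groups were separate, with log2 fold changes of 0.53 (SE 0.11, adjusted p = 9.29e-06) and -1.18 (SE 0.11, adjusted p = 3.45e-25). Its cofactor Hspe1 (Hsp10) had 3459, 2637 and 2945 counts in control, 5809, 3056 and 3218 with CK666, and 2106, 2149 and 2224 with CytoD. The high CK666 value belonged to replicate 1, the library richest in short genes of that experiment. Without that library the CK666 change was 0.06 (adjusted p = 0.681), and the CytoD change of -0.48 passed the test (adjusted p = 2.28e-06). The CytoD change passed in only 3 of 19 alternative fits, with adjusted p-values up to 0.27. Per kb, the ratio of Hspd1 to Hspe1 was 1.47 ± 0.17 in control, 1.66 ± 0.36 with CK666 and 0.894 ± 0.014 with CytoD (SD, n = 3).

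In the second experiment siArp4 raised Hspa1b 2.57-fold and Hsph1 1.91-fold over siControl and lowered Hspa8 to 0.786. No other of the 10 passed, so 3 genes passed, where 25.4% of 15270 genes did (12.1% higher and 13.3% lower). Hspa1b alone met the 2-fold minimum, which 16.3% of all genes met. The median over the 9 tested was 0.14, against -0.05 for all genes tested. The remaining values were 0.45 for Hspa1a (adjusted p = 0.123), 0.35 for Hsp90aa1 (adjusted p = 0.096), 0.14 for Dnajb1 (adjusted p = 0.470), -0.05 for Hspd1 (adjusted p = 0.858), -0.31 for Hspb1 (adjusted p = 0.700) and -0.76 for Hspe1 (adjusted p = 0.0753).

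With CK666 on top of the knockdown, Hspa1a, Hspa1b and Hspb1 fell below siArp4 alone, to 0.401, 0.391 and 0.271 of its level, and Hspd1 rose 1.64-fold. These 4 of 10 passed, where 9.69% of 14330 genes did (3.75% higher and 5.94% lower), and the 3 that fell met the 2-fold minimum (5.65% of all genes). For Hsph1 the value was 0.70 on the log2 scale (SE 0.28, adjusted p = 0.0859). It passed in 3 of 19 alternative fits, with adjusted p-values up to 0.306 over the 19. Without siControl replicate 2, whose spread enters the fit, the Hsph1 value of 0.70 had an adjusted p of 5.75e-07. Against siControl, siArp4+CK666 changed 5 of the 10, where 30.2% of 15270 genes passed (14.2% higher and 16.0% lower). Hsph1 rose 3.09-fold and Hspd1 1.58-fold, while Hspb1 fell to 0.218, Hspa1a to 0.546 and Hspa8 to 0.724. Of these Hsph1 and Hspb1 met the 2-fold minimum (20.6% of all genes).

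The inducible copies followed this course library by library. Hspa1b had 416, 352 and 477 normalized counts in siControl, 1070.3, 1082 and 1051 after siArp4 alone, and 392, 447 and 414 after siArp4+CK666. All siArp4 libraries stood above all others, and the siArp4+CK666 libraries lay within the siControl range (log2 fold change against siControl 0.01, 95% interval -0.32 to 0.33, adjusted p = 0.982). The rise with siArp4 was 1.36 (SE 0.16, adjusted p = 2.35e-15) and the step down with CK666 -1.35 (SE 0.16, adjusted p = 9.15e-15). Hspa1a had 168, 205 and 208 counts in siControl, 249, 298 and 242 after siArp4 alone, and 79.2, 113 and 123 after siArp4+CK666. It fell by 1.32 when CK666 was added (SE 0.24, adjusted p = 9.20e-07). Summed, the copies rose by 1.13 with siArp4 (SE 0.15, adjusted p = 1.91e-12), and fell by 1.35 with CK666 added (SE 0.15, adjusted p = 7.78e-17). The stromal markers summed to 3862 to 9044 CPM in siControl, 10738 to 12312 in siArp4 and 5116 to 6512 in siArp4+CK666. From siControl to siArp4 the mean normalized count rose for Col1a1 (25998 to 84628) and Col1a2 (82470 to 124655), the most abundant. Ly6a, Pdgfra and Pdgfrb also rose. Cd44 (813 to 524), Eng (53.6 to 19.4), Itgb1 (13193 to 11506) and Vcam1 (2595 to 2132) were lower on average. The part of the markers in the result was not tested.

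Hspa8 had 28449, 28400.5 and 32276 normalized counts in siControl, 23961, 23254 and 22854 after siArp4 alone, and 20815, 21973 and 21766 after siArp4+CK666. Each group lay below the one before it. The siArp4 change of -0.35 (SE 0.11, adjusted p = 0.00601) passed in 8 of 19 alternative fits. The share of the inducible copies in Hspa8 per kb was 1.72% ± 0.07 in siControl, 4.81% ± 0.18 in siArp4 and 2.05% ± 0.12 in siArp4+CK666 (SD, n = 3). The siControl share lay within the spread of the untransfected control share of 1.74% ± 0.07, although Hspa1b and Hspa8 were each lower in siControl, as given below with the transfected and untransfected controls.

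Hsph1 had 798, 399 and 899.8 normalized counts in siControl, 1288, 1298 and 1415 after siArp4 alone, and 2185, 2035 and 2269 after siArp4+CK666. The low siControl library was replicate 2, the one richest in short genes, and the siArp4 change was 0.93 with it (SE 0.29, adjusted p = 0.00497) and 0.64 without it (adjusted p = 4.53e-05). The call passed in 12 of 19 alternative fits and was lost, among others, with edgeR (adjusted p = 0.0273), with only the 6 libraries compared (0.0225) and without any 1 siArp4 library (0.024 to 0.0385). The rise of siArp4+CK666 over siControl was 1.63 (SE 0.29, adjusted p = 1.18e-07). Dnajb1 ranged only from 862 to 1115 counts over the 9 libraries of this experiment. Hsp90aa1 had 12852, 9268 and 11233 counts in siControl, 13759.5, 13574 and 15188 after siArp4 alone, and 16042, 15703 and 13627 after siArp4+CK666. Every library of both knockdown groups exceeded siControl in Hsp90aa1, though neither contrast passed the test (adjusted p = 0.096 and 0.0254).

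Hspb1 had 32.8, 179.6 and 79.8 normalized counts in siControl, 77.4, 80.6 and 74.7 after siArp4 alone, and 16.9, 19.8 and 26.4 after siArp4+CK666. The siControl spread followed the balance of short and long genes, and the siArp4+CK666 libraries were below all others. The change with CK666 added was -1.88 (SE 0.56, adjusted p = 0.00855). It passed in 10 of 19 alternative fits and was lost with edgeR (adjusted p = 0.0657) and without any 1 library of the groups compared. The balance was -0.72, -0.24 and 0.29 in siArp4+CK666, against 0.08, 0.09 and -0.28 in siArp4. Hspd1 had 7160.5, 5213 and 7106 counts in siControl, 6213, 6084 and 6543 after siArp4 alone, and 10310.3, 10669.7 and 9848 after siArp4+CK666. Its rise with CK666 added was 0.71 (SE 0.16, adjusted p = 2.97e-04) and passed in 14 of 19 alternative fits. Hspe1 had 3484, 9215 and 5832 counts in siControl, 3731, 3957 and 3222 after siArp4 alone, and 3551, 4912 and 6072 after siArp4+CK666. Over the siArp4+CK666 libraries Hspe1 had the order of the balance just given. In siControl it was thus anywhere from level with siArp4 to more than any other library, and the siArp4 change of -0.76 became -0.37 without replicate 2 (adjusted p = 0.330) and -1.05 without replicate 1 (adjusted p = 5.25e-04). Hspb8 had at most 2.73 normalized counts in this experiment.

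**Figure D4:**
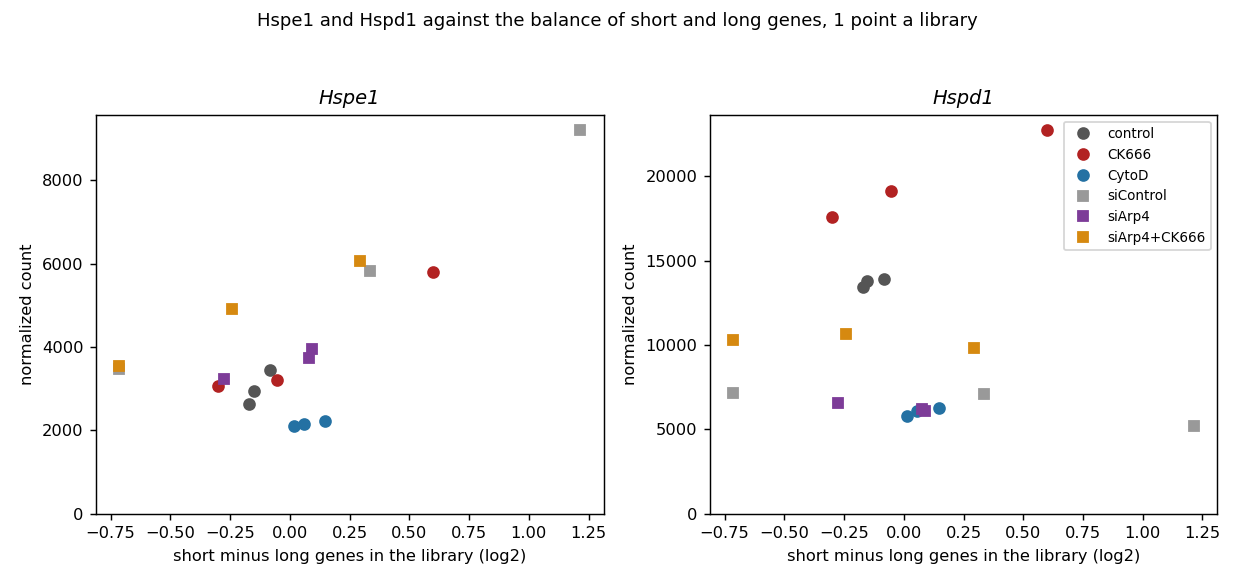
Normalized counts of Hspe1 and Hspd1 (y axis) against the log2 balance of short over long genes (x axis) in each of 18 libraries. The highest Hspe1 value, 9215, belongs to siControl replicate 2 at a balance of 1.22, where Hspd1 has its lowest value of the second experiment, 5213.

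Whether CK666 acted differently in knocked-down and untransfected cells was tested with all 18 libraries. Hspa8 alone of the 10 passed, where 8.35% of 12758 genes did (4.01% higher and 4.34% lower), and it did not meet the 2-fold minimum that 4.69% met. Its CK666 change was 0.27 in untransfected cells and -0.12 in siArp4 cells, a difference of -0.39 (SE 0.09, adjusted p = 5.12e-04). For Hspa1b the CK666 changes of -1.58 and -1.35 differed by 0.22 (95% interval -0.13 to 0.57, adjusted p = 0.474). The Hspa1a difference was -0.23 (95% interval -0.73 to 0.27, adjusted p = 0.631), and that of Hspd1 0.18 (95% interval -0.15 to 0.50, adjusted p = 0.564). Hsph1 differed by -0.16 (95% interval -0.72 to 0.40, adjusted p = 0.785). The baselines of the 2 CK666 effects were not alike, since one was transfected and knocked down and the other neither.

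The transfected and untransfected controls also stood apart. Of the 10 genes, 6 passed between siControl and control, where 41.1% of 14822 genes did (21.2% higher and 19.9% lower), and 3 met the 2-fold minimum, against 23.6% of all genes. Hsp90aa1 was at 0.451 of control, Hspd1 at 0.489, Hsph1 at 0.509, Hspa1b at 0.523 and Hspa8 at 0.581, while Hspe1 was 2.14 times as high. Hspe1 no longer passed without siControl replicate 2 (log2 fold change 0.67, adjusted p = 0.0473) or with the length trend removed (0.17, adjusted p = 0.294). Hspa1a was at 0.741 of control without passing (adjusted p = 0.0275), and Dnajb1 at 0.974. Transfection and experiment cannot be told apart in these values, so levels were read against the control of the same experiment.

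The other chaperone genes, listed by class, are given as counts past the same test, to be read against all genes tested. Of those 15.0% were higher and 14.4% lower with CK666, 13.5% and 15.7% with CytoD, 12.1% and 13.3% with siArp4 against siControl, and 3.75% and 5.94% with siArp4+CK666 against siArp4. The heat shock factors came first. Hsf1, which activates the set, had a log2 fold change of 0.19 with CK666 (adjusted p = 0.212), fell by 0.42 with CytoD (SE 0.12, adjusted p = 0.00264) and had values of -0.56 with siArp4 (adjusted p = 0.0178) and -0.35 with siArp4+CK666 (adjusted p = 0.165). Hsf2, a related factor, rose by 0.98 with CK666 (SE 0.11, adjusted p = 1.01e-16) and by 0.94 with siArp4 (SE 0.19, adjusted p = 1.01e-05), with -0.10 for CytoD (adjusted p = 0.531). The CK666 effect on Hsf2 was lower in siArp4 cells by -0.94 (SE 0.18, adjusted p = 6.25e-06).

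Among 11 Hsp70 and Hsp110 relatives 4 rose and none fell with CK666 (median 0.20), while 1 rose and 7 fell with CytoD (median -0.65). The endoplasmic reticulum Hsp70, Hspa5, rose by 1.38 with CK666 (SE 0.12, adjusted p = 1.19e-28) and fell by 0.84 with CytoD (SE 0.12, adjusted p = 6.08e-11). The mitochondrial Hsp70, Hspa9, rose by 0.93 and fell by 0.92 in the same contrasts (adjusted p = 1.02e-40 and 1.24e-38). In siArp4 cells 4 of the 11 rose over siControl, among them Hspa2 (1.50, adjusted p = 1.66e-24), Hspa12a (1.74, adjusted p = 2.21e-04) and Hspa4 (1.27, adjusted p = 5.48e-04). Of 16 J-domain partners and nucleotide exchange factors, 2 rose and 2 fell with CK666, and 1 rose and 3 fell with CytoD, shares near the 29.4% and 29.2% of all genes past the test in either direction. Bag3, an exchange factor that works with Hspb8, fell by 0.47 with CK666 (adjusted p = 9.92e-08), and Dnaja3, the mitochondrial partner, rose by 1.31 (adjusted p = 7.35e-37).

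Of 13 Hsp90 relatives and co-chaperones, 8 fell and none rose with CytoD (median -0.50), led by Ppid (-1.32, adjusted p = 2.47e-10) and Fkbp5 (-1.09, adjusted p = 9.60e-22). With CK666, 3 rose and 1 fell (median 0.09). The cytosolic chaperonin TRiC, the barrel that folds actin and tubulin, had all 8 subunits lower with CytoD (median -0.70), from Cct6a at -0.87 (adjusted p = 2.87e-09) to Cct4 at -0.43 (adjusted p = 0.00731), the smallest change of the list and named for that. With CK666, 1 of the 8 passed, Cct2 at 0.34 (adjusted p = 0.00582, list median 0.09). For siArp4 against siControl the list had 1 higher and 1 lower, and for siArp4+CK666 against siArp4 none passed. The CytoD count for TRiC was also 8 lower with TMM size factors and with the length trend removed, and all genes tested had a median of 0.01 in that contrast.

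Mitochondrial chaperones and proteases numbered 11, of which 8 rose and none fell with CK666 (median 0.51), and 1 rose and 4 fell with CytoD (median -0.23). Lonp1, a matrix protease, rose by 1.50 with CK666 (SE 0.09, adjusted p = 3.09e-55). When CK666 was added to siArp4, 3 of the 11 rose, Afg3l2 by 1.20 (adjusted p = 5.41e-13), Hspa9 by 0.86 (adjusted p = 3.79e-09) and Grpel2 by 0.68 (adjusted p = 0.00251). The other genes listed here as small heat shock proteins were mostly low. Of those tested with CK666, Hspb11 rose by 1.20 (adjusted p = 2.45e-05) and Cryab fell by 0.55 (adjusted p = 0.00269), and none of the 4 tested with CytoD passed. Whether Hspb11 acts as a chaperone was not examined.

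**Figure D5:**
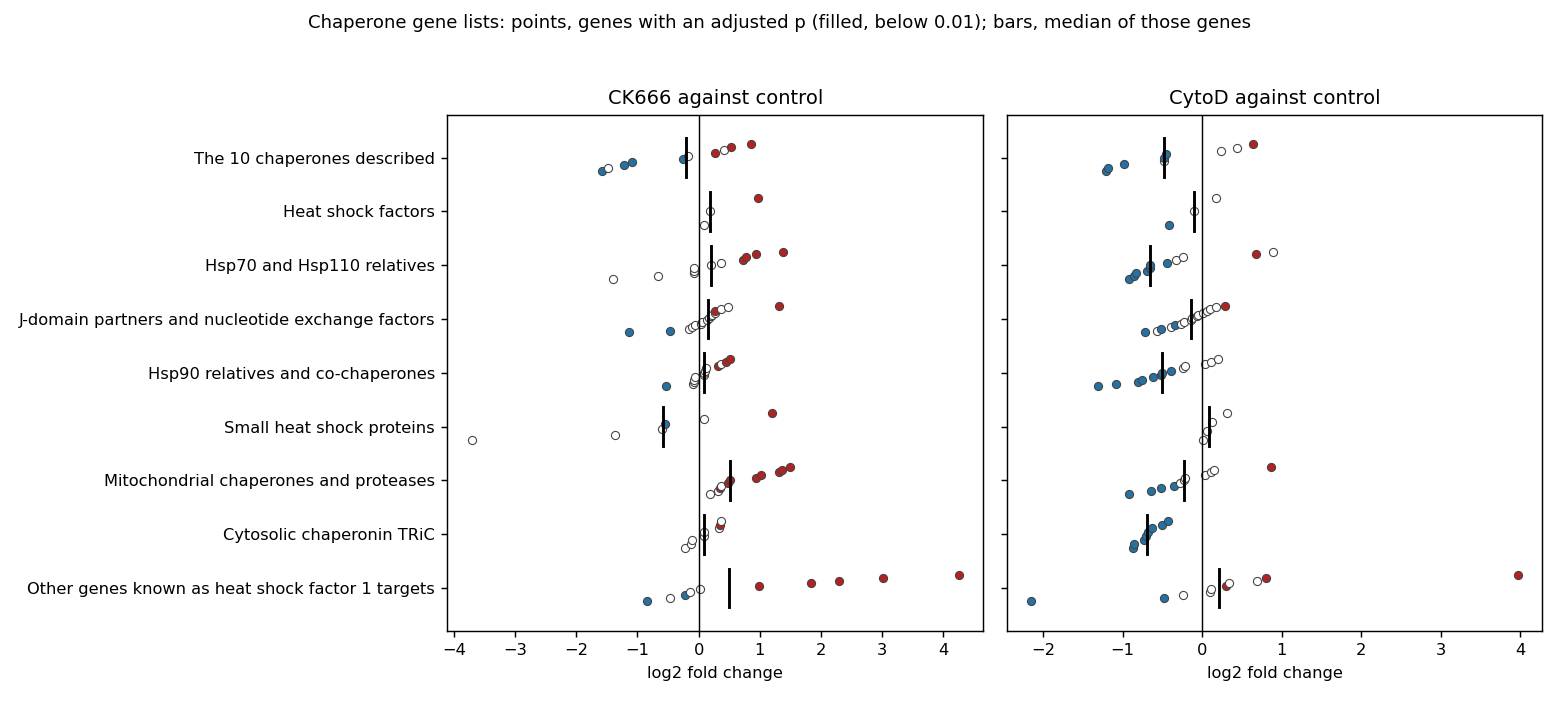
Log2 fold change (x axis) with CK666 (left) and CytoD (right) against control of genes in 9 chaperone lists that received an adjusted p (points, filled where it is below 0.01), with the list median (bars). All 8 TRiC subunits lie left of zero with CytoD, and 8 of 11 mitochondrial genes are filled right of zero with CK666.

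A last list held 10 other genes known as HSF1 targets. With CK666, 5 rose and 2 fell (median 0.50), led by Atf3 (4.25, adjusted p = 1.69e-72), Chac1 (3.01, adjusted p = 1.26e-78) and Hmox1 (2.29, adjusted p = 2.77e-72). Those that rose most also answer to other stress factors, Atf3 and Chac1 to ATF4 and Hmox1 to NRF2. CytoD left 3 higher and 2 lower (median 0.21), with Rgs2 up by 3.97 (adjusted p = 4.25e-33) and Chac1 down by 2.15 (adjusted p = 4.34e-25). With siArp4, 6 rose and none fell (median 0.82), among them Rgs2 (1.40, adjusted p = 8.76e-16), Atf3 (1.37, adjusted p = 2.17e-05) and Dedd2 (1.11, adjusted p = 0.0036). Adding CK666 to siArp4 left 4 higher and 1 lower (median 0.45), with Atf3 up by 3.51 (adjusted p = 6.42e-48) and Chac1 by 1.62 (adjusted p = 4.67e-08).

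Patterns over the 6 group means were compared as the root mean square difference of centred log2 levels, among 10320 genes with a mean of at least 100 normalized counts. The gene closest to Hspa1b was Col1a1, the collagen of osteoblasts and fibroblasts (difference 0.199, against a median of 0.892 over all genes compared). Closest to Hspa1a was Alpk1 (0.172) and closest to Hsph1 was Aars, an aminoacyl-tRNA synthetase (0.157). Hspa8 was nearest to Mcu, the mitochondrial calcium uniporter (0.0696), Hspd1 to Cdt1 (0.120), Hsp90aa1 to Eif3b (0.0470), Dnajb1 to Psmc4 (0.0424), Hspb1 to Sqle (0.188) and Hspe1 to Apex1 (0.118). Within the set the nearest to Hspa1b was Hspa1a, at 0.395, and the nearest to Hspa1a was Hspb1, at 0.323. Hsph1 was nearest to Hspd1 (0.440), and Hspd1 to Hsp90aa1 (0.331). The nearest gene outside the set was the best of 10320 candidates and the nearest member the best of 9, so these distances cannot be set against each other.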

How the data were processed

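RNA from 18 libraries, 6 groups of 3, was sequenced from both ends in libraries that do not mark strand. The authors quantified it with Salmon 1.2.1 on GENCODE vM25 transcripts of GRCm38 and deposited estimated counts per gene, not normalized; the step from transcripts to genes is not given in the sources used here. These values were rounded to whole numbers. Gene names came from GENCODE vM21, which named 54094 of 54347 IDs. Genes were tested with DESeq2 1.42.0 (R 4.3.3, Wald test, two-sided, Benjamini-Hochberg over all genes tested), with its independent filtering and no count filter set beforehand. The fits used the 9 libraries of an experiment, or all 18 for the difference of CK666 effects and for siControl against control. Passing means an adjusted p below 0.01, with the study's 2-fold minimum beside it. Normalized counts use the size factors of each experiment. Deeper counts are more precise, and Hspb1 and Hspb8 were read from few. Alternatives were TMM size factors, edgeR 4.0.16, a count filter of 10 in 3 libraries, no independent filtering, the replicate number as a block, copies or pseudogenes summed, other sets of libraries, each library left out, and, chosen after seeing the data, the length trend removed. The tests were checked on simulated data with the same relative spread for all genes and no length trend. That check does not cover the wide spread between the siControl libraries. No replicate pair agreed within sampling noise (lowest chi-square per degree of freedom 6.80).

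The members and lists were chosen with earlier results of these data known. The text names all 10 members, Actl6a, Hsf1, Hsf2, and from each list up to 3 genes with the largest change past the test. For each member the 2 nearest patterns outside the set and 1 within it were found. The nearest outside is printed for all but Hspb8, and the nearest within for Hspa1a, Hspa1b, Hsph1 and Hspd1. Motif windows and sequences are RefSeq's.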

Additional observations from a re-analysis of the deposited data

Results flagged for a closer look

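The CK666 effect on Hspa8 differed between the experiments by a test of the difference itself, at -0.39 on the log2 scale (SE 0.09, DESeq2 adjusted p = 5.12e-04). CK666 libraries were above all control libraries (0.27), and siArp4+CK666 libraries were below all siArp4 libraries (-0.12, adjusted p = 0.594). The difference passed in 25 of 26 alternatives and missed with edgeR (-0.40, adjusted p = 0.0494). Transfection, knockdown and experiment cannot be told apart as its source.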

How the results depend on the processing

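Of the single-gene values recomputed under the alternatives, 1525 kept their side of the threshold and, but for a few of Hspb8 without an adjusted p, their direction, 72 lost the call, 17 gained it and 22, of 8 results, changed direction, with 0 of these 22 past the test in either fit. With the length trend removed Hspb1 was 0.22 and Hspd1 0.0312 for siArp4 against siControl, Hspe1 was 0.0751 for siArp4+CK666 against siControl and 0.28 for the difference of CK666 effects, and Hspb1 was -0.87 for siControl against control. Hspa1b for siArp4+CK666 against siControl was -0.00554 with edgeR and -0.22 summed with Hspa1a. Leaving out 1 library moved across zero Dnajb1 (-0.0364 to 0.11), Hspa1b (-0.10 to 0.11) and Hspe1 (-0.63 to 0.0541) for siArp4+CK666 against siControl, Hspb1 (-0.73 to 0.47) and Hspd1 (-0.19 to 0.0228) for siArp4 against siControl, Dnajb1 (-0.13 to 0.0370) and Hspb1 (-0.36 to 0.88) for siControl against control, and Hspe1 (-0.22 to 0.36) for the difference of CK666 effects. Under the added 2-fold minimum the members past the test were 3 for CK666 against control, 2 for CytoD against control, 5 for CK666 against CytoD, 1 for siArp4 against siControl, 2 for siArp4+CK666 against siControl, 0 for the difference of CK666 effects and 3 for siControl against control. With edgeR they were 1 for siArp4 against siControl, 2 for siArp4+CK666 against siControl, 2 for siArp4+CK666 against siArp4 and 0 for the difference of CK666 effects, where 2 members had an unadjusted p below 0.05 by edgeR and 2 by DESeq2. With only the 6 libraries compared they were 4 for CK666 against control, 1 for siArp4 against siControl and 2 for siArp4+CK666 against siControl. Leaving out 1 library gave 4 to 7 members for CK666 against control (4 without control replicate 3), 1 to 4 for siArp4 against siControl (1 without any 1 siArp4 library or without siArp4+CK666 replicate 1 or 2), 3 to 6 for siArp4+CK666 against siControl (3 without siArp4+CK666 replicate 1) and 2 to 5 for siArp4+CK666 against siArp4 (2 without siArp4 replicate 1 or 2 or siArp4+CK666 replicate 2). The causes were not tested.

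Samples with the same replicate number did not deviate together (18 pairs, r from -0.65 to 0.81, 5 above 0.1), so the numbers were not taken to pair them. With the replicate number as a block, 5 members passed for CK666 against control, 6 for CytoD against control, 8 for CK666 against CytoD, 2 for siArp4 against siControl, 5 for siArp4+CK666 against siControl, 4 for siArp4+CK666 against siArp4, 1 for the difference of CK666 effects and 6 for siControl against control. Depth limits Hspb8, with 0 to 8.34 counts a library, and leaves Hspb1 with wide errors.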

Other observations

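The split between the inducible copies differed between groups. Per kb, Hspa1b over Hspa1a was 3.25 ± 0.34 in control, 2.31 ± 0.35 with CK666 and 2.47 ± 0.15 with CytoD, and 2.29 ± 0.42 in siControl, 4.33 ± 0.42 in siArp4 and 4.32 ± 0.85 in siArp4+CK666 (SD, n = 3). The siArp4 libraries, at 4.55, 3.84 and 4.59, were all above the siControl libraries, at 2.62, 1.82 and 2.43. The difference was not tested, and reads shared by the copies make each single value uncertain.

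Hsph1 as a percent of Hspa8 per kb was 1.47% ± 0.51 in siControl, 3.60% ± 0.27 in siArp4 and 6.34% ± 0.44 in siArp4+CK666 (SD, n = 3), with no overlap between the 3 groups, and was not tested.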
